A study of Mus musculus with 6 samples.

Results

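ABC transporters are membrane pumps that use ATP to move lipids, bile salts, conjugates, metals and drugs. The 48 mouse genes described here are all analysed genes whose single symbol begins with Abc, a subfamily letter A to G and a number, out of 22180 genes with 1 symbol. Each was read by 1 probe set. They fell into subfamily A (16 genes), B (9), C (10), D (3), E (1), F (3) and G (6).

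Liver RNA came from 3 HKO and 3 Con mice, 1 Affymetrix array each, all male C57BL/6J. HKO mice descended from a cross of Slug f/f mice with albumin-CreERT2 drivers and lack Slug (gene symbol Snai2, a zinc finger repressor of the Snail family) in the liver. Con mice are their Slug f/f littermates. Both groups were given a high fat diet (60% of calories as fat) for 11 weeks, starting at 8 weeks of age. CreERT2 acts only after tamoxifen, and the albumin promoter limits it to hepatocytes, so other liver cells keep the gene. The sources used here do not give the time or dose of tamoxifen, or say whether Con mice received it or carried Cre. The comparison asks which ABC genes differ in liver when hepatocytes lack Slug during high fat feeding.

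In hepatocytes, ABC pumps on the canalicular membrane make bile. Abcb11 exports bile salts, Abcb4 flops phosphatidylcholine, the Abcg5 and Abcg8 heterodimer exports sterols, and Abcc2 exports conjugated bilirubin. Pumps on the basolateral membrane return conjugates and lipids to blood, and Abca1 loads apolipoprotein A-I with cholesterol. Members of subfamily D carry fatty acyl-CoA into peroxisomes, some members of B work in mitochondria, and E and F proteins have no membrane part and act at ribosomes.

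All values are log2 values from RMA, which corrects the background, makes the distributions of the arrays equal and summarises the probes of each gene, so a difference of 1 is a 2-fold difference in array signal. The median over all genes was 3.94. Of the ABC genes, 35 had a mean above it and 13 below it, and the second set is not shown to be above background. The arrays were alike, with correlations over all genes of 0.986 to 0.992. Albumin, the hepatocyte's main secreted protein, averaged 12.45 in HKO and 12.44 in Con livers. Snai2 had values of 4.62, 5.23 and 5.69 in HKO livers, against 7.74, 7.69 and 7.39 in Con livers. The groups did not overlap, and the log2 difference was -2.43 ± 0.25 (SE; limma adjusted p = 0.0145). These are whole liver pieces, so a lower value can come from less RNA per cell or from fewer cells of a type, which cannot be told apart.

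Abca3 rose in HKO livers, and it was the 1 ABC gene of 48 that passed limma's adjusted p of 0.05 over all genes, 1 higher and 0 lower. Of all genes, 0.0902% passed in the upward direction and 0.113% in the downward direction (0.203% either way). At an unadjusted p under 0.05, 4 ABC genes were higher and 7 lower, where 5.31% and 6.56% of all genes were. These 11 genes are 22.9% of the ABC genes, beside 11.9% of all genes. HKO and Con values did not overlap for 14 ABC genes, or 29.2%, beside 18.2% of all genes. Of these 14, HKO was higher for 6 and lower for 8, beside 8.05% and 10.1% of all genes. All 14 lay among the 35 brighter ABC genes, of which they are 40.0%, beside 24.6% of all genes above the median level. Most differences were small. The median log2 difference was -0.05 over the ABC genes and -0.00808 over all genes, and 35 of 48 ABC genes differed by less than 0.25 either way. The count past the adjusted p was 0 when Con replicate 1, Con replicate 2, HKO replicate 1 or HKO replicate 2 was left out, and 2 (Abca3 and Abcd2) when HKO replicate 3 was. The count of separate groups was 22 without Con replicate 1.

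**Figure D1:**
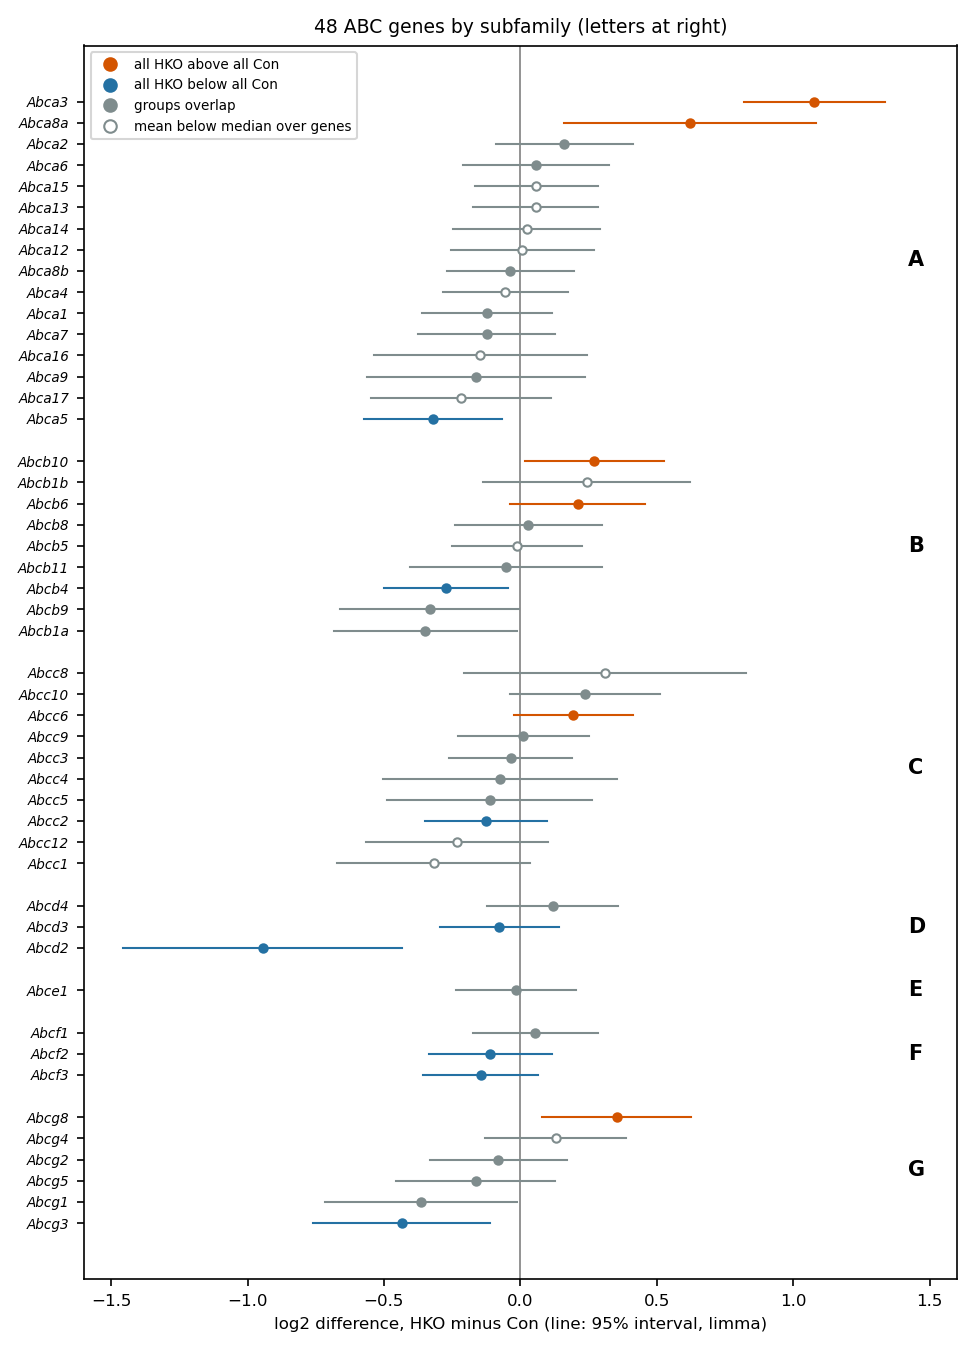
Log2 difference (HKO minus Con) of the 48 ABC genes, grouped by subfamily, with limma's 95% interval as a line. Orange points have all HKO values above all Con values (6 genes), blue points the opposite (8 genes), grey points overlap, and open points have a mean below the median over genes. Abca3 and Abcd2 lie farthest from 0, at 1.08 and -0.94.

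Sequences upstream of some members are shown for reference, from RefSeq on GRCm38.p6. Of the 48 genes, 38 were found in its promoter table by gene identifier, with 45 windows of 250 bases before to 50 after a start site. The first pair holds the Snail-type E-box CAGGTG (or CACCTG on the other strand), the hexamer that Snail family proteins are known to bind, in capitals. They are the 100 bases before the start of Abca3, the ABC gene that rose (chr17:24351923-24352022, plus strand), and of Abca5, whose values were lower (chr11:110337717-110337816, minus strand).
Abca3: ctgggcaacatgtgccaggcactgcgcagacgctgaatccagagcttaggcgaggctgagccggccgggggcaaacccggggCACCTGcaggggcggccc
Abca5: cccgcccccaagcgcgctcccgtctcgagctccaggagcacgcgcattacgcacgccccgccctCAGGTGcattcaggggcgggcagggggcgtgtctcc
In these stretches the match begins 18 bases before the start of Abca3 and 36 bases before that of Abca5. The hexamer was present in 17 of the 45 ABC windows (37.8%) and in 20.2% of all 32851 windows in the table. It was found for 15 of the 38 ABC genes, 5 of which had higher and 10 lower mean values in HKO. Their median log2 difference was -0.05, beside -0.08 for the 23 ABC genes without it. Groups were separate for 6 of the 15 and for 6 of the 23, beside 18.2% of all genes. The 6 with the hexamer were Abca3 and Abcg8, higher in HKO, and Abca5, Abcf2, Abcf3 and Abcg3, lower in HKO. The stretch of Abca5 was picked with these values known. Abca5 did not pass over all genes (limma adjusted p = 0.320). Abcd2 and Abca8a, whose differences were larger than that of Abca5, are not among the 15 genes with the hexamer. Only 38 of the 48 genes had a window, and it is not given here whether Abcd2 and Abca8a did. Their absence from the 15 may therefore mean that they were not searched. A match is a description of the letters and shows no binding. The second set is the 109 bases that separate the start sites of Abcg5 and Abcg8, which face away from each other (chr17:84683012-84683120, written on the strand of Abcg8). It is shown because their values differed in direction. Capitals mark AGATAA or its other strand TTATCT, the core read by GATA factors, a motif chosen after the sequence was seen.
Abcg5-Abcg8: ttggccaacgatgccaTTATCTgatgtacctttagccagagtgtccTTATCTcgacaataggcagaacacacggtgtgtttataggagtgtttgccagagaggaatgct
The 2 matches begin 93 and 63 bases before the start of Abcg8. Of all windows, 11.2% held this motif, and so did 6 of the 45 ABC windows. Those 6 include windows of Abcg5 and Abcg8, which both span the stretch from which the motif was picked. The same matches are thus counted in both, and the 2 shares are no test of the motif.

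Subfamily A moves lipids. Abca3, on chromosome 17, is known for packing phospholipid into the lamellar bodies of lung surfactant cells. It had values of 8.46, 8.33 and 8.21 in HKO livers, against 7.31, 7.32 and 7.14 in Con livers. Each HKO liver lay above every Con liver by a wide margin. Abca3 averaged 8.33 ± 0.13 in HKO and 7.26 ± 0.10 in Con livers (SD, n = 3 each). Its log2 difference was 1.08 ± 0.11 (SE), or 2.11-fold, with a limma adjusted p of 0.0145. The size held when any array was left out (1.01 to 1.14), but the call did not. Leaving out Con replicate 1 or 2 gave Abca3 an adjusted p of 0.0758 or 0.0927, and leaving out HKO replicate 1 or 2 gave 0.0564 or 0.0621. It was 0.0910 when every probe set of the array was tested on its own.

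Abca8a, on chromosome 11, had values of 7.23, 6.996 and 6.90 in HKO livers, against 6.25, 6.12 and 6.89 in Con livers. The groups did not overlap, though Con replicate 3 lay just under the lowest HKO liver. The log2 difference was 0.62, with a 95% interval of 0.16 to 1.08, and did not pass over all genes (limma adjusted p = 0.296). Without Con replicate 3 it was 0.86 (adjusted p = 0.0991). Its near copy Abca8b stood at -0.04 (interval -0.27 to 0.19), and probes of similar genes can share signal. Abca5 had values of 4.81, 4.67 and 4.68 in HKO livers, against 5.18, 5.01 and 4.93 in Con livers. Every HKO value was below every Con value, at a log2 difference of -0.32 (adjusted p = 0.320).

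Abca1, the exporter of cholesterol to apolipoprotein A-I, had values of 7.94, 7.88 and 7.76 in HKO livers, against 8.07, 7.96 and 7.91 in Con livers. The groups overlapped, and the log2 difference of -0.12 had an interval of -0.36 to 0.12 (limma adjusted p = 0.704). Abca6 stood at 0.06 (interval -0.21 to 0.33). The 10 members of subfamily A not described singly had log2 differences between -0.22 and 0.16. Groups separated for 0 of these 10, beside 18.2% of all genes, and 7 of the 10 had means below the median over genes. They include Abca4 of the retina and Abca12 of the skin. In all, 7 of the 16 genes of this subfamily had means below the median over genes.

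**Figure D2:**
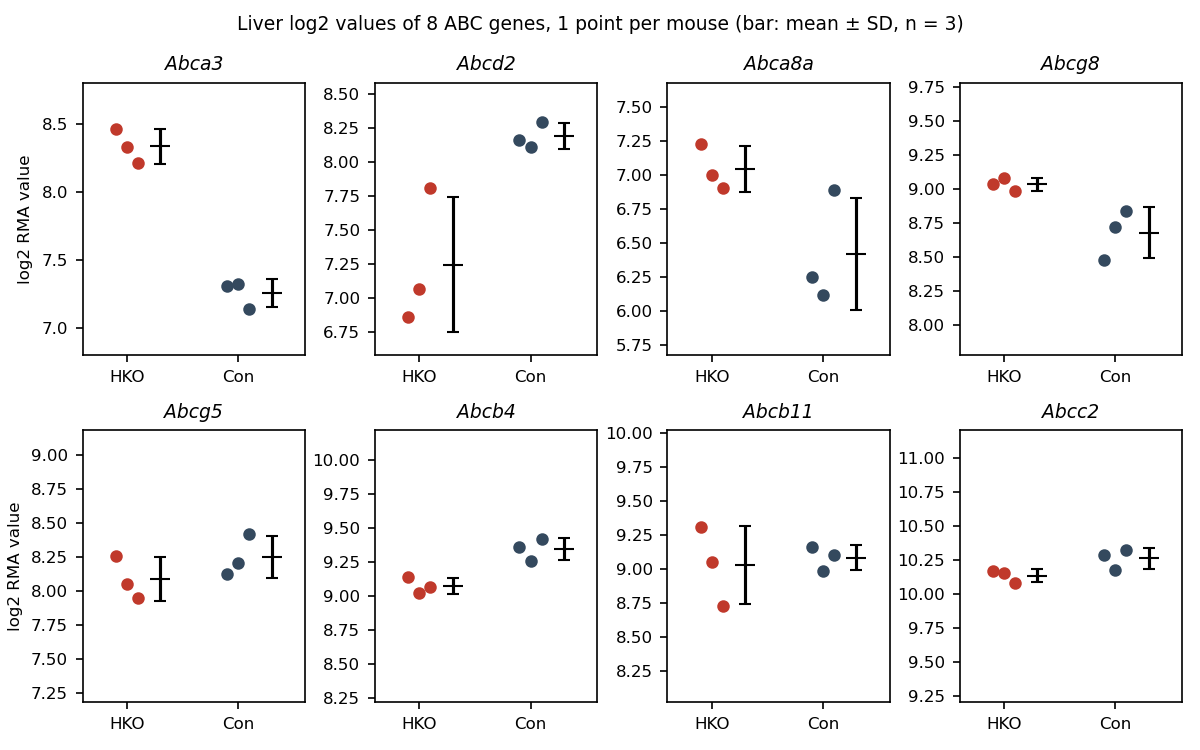
Log2 RMA values of 8 ABC genes, 1 point per mouse, with HKO left of Con and the mean ± SD (n = 3) beside each group. Each panel spans 2 log2 units around its gene's values. Abca3, Abca8a and Abcg8 have all HKO points above the Con points, Abcd2, Abcb4 and Abcc2 have all HKO points below them, and Abcg5 and Abcb11 overlap.

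The canalicular pumps had small log2 differences. Of these 7 genes, 0 passed over all genes. At an unadjusted p under 0.05, 1 was higher (Abcg8) and 2 were lower (Abcb4 and Abcb1a), beside 5.31% and 6.56% of all genes. All 7 lay above the median level, where 15.4% of genes had such a p either way. The median log2 difference of the 7 was -0.13, beside -0.00808 over all genes. Abcb4, the phosphatidylcholine floppase, had values of 9.14, 9.02 and 9.06 in HKO livers, against 9.36, 9.26 and 9.42 in Con livers. All HKO values lay below all Con values, with a log2 difference of -0.27 (interval -0.50 to -0.04; limma adjusted p = 0.351). Abcb1a, a P-glycoprotein that exports drugs and other foreign compounds, had values of 5.30, 5.54 and 5.70 in HKO livers, against 5.64, 6.01 and 5.95 in Con livers. HKO replicate 3 overlapped Con replicate 1, and the log2 difference was -0.35 (adjusted p = 0.406). Its near copy Abcb1b averaged 3.43 in HKO and 3.19 in Con livers, below the median over genes.

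Abcb11, the bile salt export pump, had values of 9.31, 9.05 and 8.73 in HKO livers, against 9.16, 8.98 and 9.10 in Con livers. The HKO livers spread on both sides of the Con livers. The log2 difference was -0.05 (interval -0.40 to 0.30; limma adjusted p = 0.927). It stood at 0.10 without HKO replicate 3 and at -0.19 without HKO replicate 1. Abcc2, the exporter of conjugated bilirubin, had values of 10.17, 10.15 and 10.08 in HKO livers, against 10.29, 10.17 and 10.32 in Con livers. The groups did not overlap, by a narrow gap at Con replicate 2, and the log2 difference of -0.13 did not pass (interval -0.35 to 0.10; adjusted p = 0.670). Abcg2, which exports sulfated conjugates, urate and drugs, overlapped between groups at -0.08 (interval -0.33 to 0.17).

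Abcg8 and Abcg5, which work as 1 heterodimer, had differences of opposite sign. Abcg8 had values of 9.04, 9.08 and 8.99 in HKO livers, against 8.48, 8.72 and 8.84 in Con livers. Every HKO value was above every Con value, with a log2 difference of 0.35 (interval 0.08 to 0.63; limma adjusted p = 0.311). Abcg5 had values of 8.26, 8.05 and 7.94 in HKO livers, against 8.12, 8.21 and 8.42 in Con livers. These overlapped, at a log2 difference of -0.16 (interval -0.46 to 0.13; adjusted p = 0.669). The pair was picked after its values were seen. Relative to the Con mean, the log2 gap of Abcg8 over Abcg5 was 0.35, 0.60 and 0.61 in HKO livers, against -0.08, 0.08 and -0.00709 in Con livers. All 3 HKO livers exceeded all 3 Con livers, by 0.52 on average. In an exact two-sided permutation test of this gap p was 0.1, and no lower value is possible with 3 livers a group. This p follows from the separation already seen when the pair was picked, so the test adds no support. RefSeq also lists a further start of Abcg8 inside the neighbouring Abcg5 region, and 1 probe set per gene cannot tell transcripts apart.

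**Figure D3:**
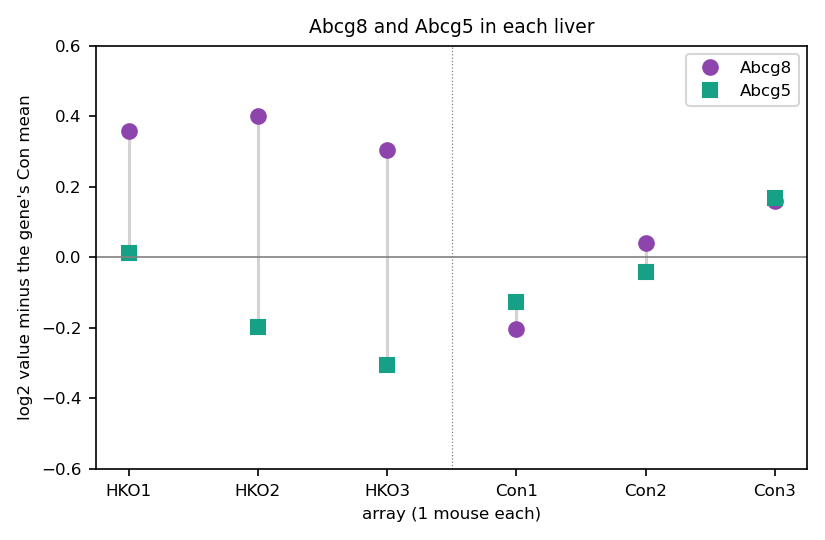
Log2 values of Abcg8 (circles) and Abcg5 (squares) in each of the 6 livers, as the difference from the gene's own Con mean, with HKO arrays left of Con arrays. A grey line joins the genes of 1 liver. The gap is 0.35 to 0.61 in HKO livers and -0.08 to 0.08 in Con livers.

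Among the basolateral pumps, 0 of 4 passed over all genes and 0 had an unadjusted p under 0.05, beside 0.203% and 11.9% of all genes. With 4 genes, counts of 0 say little. Abcc6, which releases ATP from hepatocytes and is mutated in pseudoxanthoma elasticum in humans, had values of 7.60, 7.69 and 7.66 in HKO livers, against 7.44, 7.42 and 7.52 in Con livers. All HKO values lay above all Con values, and the log2 difference was 0.19 (interval -0.02 to 0.41; limma adjusted p = 0.477). Abcc3, an exporter of glucuronide conjugates to blood, had values of 9.13, 9.25 and 9.24 in HKO livers, against 9.28, 9.16 and 9.29 in Con livers. These overlapped, with an interval of -0.26 to 0.19 around -0.04. Abcc4, an exporter of bile salts and cyclic nucleotides, averaged 4.17 ± 0.07 in HKO and 4.25 ± 0.40 in Con livers (SD, n = 3 each). Its Con livers ranged from 3.88 to 4.67, which leaves a wide interval of -0.50 to 0.35.

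The other members of subfamily C also gave 0 genes with an unadjusted p under 0.05, beside 11.9% of all genes. Abcc9, the sulfonylurea receptor of vascular potassium channels, averaged 7.23 ± 0.08 in HKO and 7.22 ± 0.10 in Con livers (SD, n = 3 each), with an interval of -0.23 to 0.25 for the log2 difference. Abcc10, a drug exporter, averaged 5.48 in HKO and 5.24 in Con livers, and the groups overlapped. The remaining 4 members ranged from -0.32 to 0.31. The upper end is Abcc8, the sulfonylurea receptor of the pancreatic beta cell, chosen after its values were seen, with HKO replicate 2 at 4.49 and the other HKO livers at 3.72 and 3.67, against 3.50, 3.55 and 3.89 in Con livers.

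In subfamily D, the values of Abcd2 were lower in HKO. Abcd2, on chromosome 15, imports very long chain and polyunsaturated acyl-CoA into peroxisomes. It had values of 6.86, 7.07 and 7.80 in HKO livers, against 8.16, 8.11 and 8.29 in Con livers. All HKO livers lay below all Con livers, and HKO replicate 3 lay nearest to them. Abcd2 averaged 7.24 ± 0.49 in HKO and 8.19 ± 0.10 in Con livers (SD, n = 3 each). The log2 difference of -0.94 ± 0.22 (SE; interval -1.46 to -0.43) did not pass over all genes (limma adjusted p = 0.179). Without HKO replicate 3 it was -1.22 and passed (adjusted p = 0.0419). With another array left out it lay between -0.75 and -0.98, with an adjusted p of 0.287 to 0.384. Abcd2 is abundant in fat tissue, and all 4 measured adipocyte markers had means below the median over genes. Their mean ranged from 3.02 to 3.15 in HKO and from 2.89 to 2.998 in Con livers, with 3 of the 4 markers higher and 1 lower in HKO. Whether fat tissue has a part in the Abcd2 values was not tested.

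The other peroxisomal member, Abcd3, carries long chain acyl-CoA and bile acid precursors. It had values of 10.19, 10.19 and 10.08 in HKO livers, against 10.27, 10.21 and 10.22 in Con livers. The groups separated by a narrow margin, at a log2 difference of -0.08 (interval -0.30 to 0.14; limma adjusted p = 0.801). Abcd4, which serves cobalamin export from lysosomes, stood at 0.12 and overlapped between groups.

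The mitochondrial members of subfamily B had log2 differences above 0. Of the 3 measured, 0 passed over all genes and 1 had an unadjusted p under 0.05, beside 11.9% of all genes and 15.4% of those above the median level, where all 3 lay. Their median log2 difference was 0.21, beside -0.00808 over all genes. Abcb10, of the inner mitochondrial membrane and linked to haem synthesis, had values of 6.65, 6.58 and 6.44 in HKO livers, against 6.16, 6.31 and 6.39 in Con livers. All HKO values lay above all Con values (log2 difference 0.27, limma adjusted p = 0.396). Abcb6, linked to porphyrin transport, had values of 7.36, 7.36 and 7.30 in HKO livers, against 7.06, 7.04 and 7.29 in Con livers. Here the groups separated by a hair at Con replicate 3, with a log2 difference of 0.21 (adjusted p = 0.496). Abcb8 overlapped between groups at 0.03. Abcb9, a lysosomal peptide transporter chosen after its values were seen, averaged 4.198 in HKO and 4.53 in Con livers (unadjusted p = 0.0480, adjusted p = 0.418), with overlap.

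The ABC proteins without a membrane part, which serve translation, had log2 differences between -0.15 and 0.05. Abce1, a ribosome recycling factor, averaged 8.84 ± 0.04 in HKO and 8.85 ± 0.06 in Con livers (SD, n = 3 each), with an interval of -0.24 to 0.20 for the log2 difference. Abcf1 stood at 0.05 and Abcf2 at -0.11. Abcf3, chosen after its values were seen, had tight groups, with 6.40, 6.45 and 6.41 in HKO livers against 6.56, 6.58 and 6.56 in Con livers. Its groups did not overlap, but the log2 difference was only -0.15 (limma adjusted p = 0.591). Abcf2 also had all HKO values below all Con values.

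In the rest of subfamily G, lower values stood beside the higher Abcg8. Abcg3, a rodent relative of Abcg2, had values of 4.61, 4.61 and 4.41 in HKO livers, against 4.83, 5.26 and 4.84 in Con livers. All HKO values were lower, with a log2 difference of -0.44 (interval -0.76 to -0.11; limma adjusted p = 0.296). Abcg1, which exports cholesterol to high density lipoprotein and is abundant in macrophages, had values of 5.42, 4.99 and 5.09 in HKO livers, against 5.70, 5.59 and 5.30 in Con livers. HKO replicate 1 overlapped Con replicate 3, and the log2 difference was -0.36 (adjusted p = 0.407). Abcg4, a sterol exporter of the brain, averaged 3.64 in HKO and 3.51 in Con livers, below the median over genes.

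Some ABC genes are read from cells other than hepatocytes, so markers of those cells are given beside them. Of 7 measured markers of recruited (monocyte-derived or lipid-associated) macrophages, 1 fell over all genes (Itgax), beside 0.113% of all genes, and 3 had HKO values all below the Con values, beside 10.1% of all genes. Itgax averaged 3.42 in HKO and 4.44 in Con livers. Its mean over all arrays and that of Ccr2 lay below the median over genes, so neither is shown to be above background. The mean of the 7 markers ranged from 4.71 to 5.11 in HKO and from 5.45 to 5.58 in Con livers. Of 8 stellate cell markers, 0 passed over all genes and 4 had HKO values all below the Con values, beside the same 10.1%. The 4 were Col1a1, Pdgfrb, Dcn and Acta2, at log2 differences of -1.32, -0.73, -0.34 and -0.74. The others overlapped, with Rgs5 at -0.42, Reln at -0.005, Lrat at 0.03 and Des at 0.05. All 8 lay above the median level, where 24.6% of genes had separate groups either way. The stellate mean ranged from 6.48 to 6.71 in HKO and from 6.97 to 7.15 in Con livers. Means of 7 Kupffer cell markers overlapped, at 6.68 to 6.92 in HKO and 6.74 to 7.14 in Con livers. Means of 6 sinusoidal endothelial markers ranged from 7.46 to 7.51 in HKO and from 7.57 to 7.61 in Con livers. Singly, 3 of these 6 had higher and 3 lower means in HKO, with a median log2 difference of -0.009. Groups were separate for 1 (Pecam1, 16.7%), beside 24.6% of genes above the median level, where all 6 lay. Means of 5 B and plasma cell markers lay the other way, at 4.38 to 4.57 in HKO and 3.87 to 4.02 in Con livers. All 5 had higher means in HKO, 0 passed over all genes, and 2 had separate groups, the antibody joining chain gene Jchain (log2 difference 1.422, limma adjusted p = 0.0935) and the antibody heavy chain gene Ighm (0.97, adjusted p = 0.164). Means overlapped for 5 T and NK cell markers (3.43 to 3.66 in HKO and 3.55 to 4.03 in Con livers), 5 neutrophil markers (2.89 to 3.08 in HKO and 3.06 to 3.34 in Con livers) and 5 cholangiocyte markers (3.61 to 3.85 in HKO and 3.83 to 3.85 in Con livers). The part of these markers in the higher and lower values of the ABC genes was not tested. Means of the 8 hepatocyte markers overlapped, at 10.87 to 11.09 in HKO and 10.94 to 11.03 in Con livers. Of the 8 single hepatocyte markers, 0 passed over all genes. Separate groups were found for 2 (25.0%), close to the 24.6% of genes above the median level, where all 8 lay. Cyp3a11, a drug-metabolising cytochrome P450, had values of 8.59, 8.46 and 8.15 in HKO livers, against 8.80, 9.29 and 8.76 in Con livers, and Cps1, the first enzyme of the urea cycle, was the other, with all HKO values above the Con values.

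ABC genes are under the control of nuclear receptors: LXR acts on the sterol exporters, FXR on Abcb11 and Abcb4, and CAR and PXR on drug and conjugate pumps. Of 13 measured regulators, 0 passed over all genes. HKO values were all above the Con values for 5 of them and all below for 0, beside 8.05% and 10.1% of all genes. The 5 are 38.5% of the regulators, all of which lay above the median level, where 24.6% of genes had separate groups either way. The median log2 difference was 0.11. Nr1i3, the receptor CAR, had values of 9.61, 9.36 and 9.60 in HKO livers, against 9.10, 9.13 and 9.12 in Con livers. The log2 difference was 0.41 (interval 0.16 to 0.65; limma adjusted p = 0.220). Srebf2, which drives cholesterol synthesis, stood at 0.53 (adjusted p = 0.290), and Rxra, the shared partner receptor, at 0.27 (adjusted p = 0.341). The LXR gene Nr1h3 overlapped between groups at 0.11, and the FXR gene Nr1h4 stood at 0.12 with separate groups.

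Of 10 further LXR target genes, 0 passed over all genes, and 0 had HKO values all above and 4 all below the Con values, beside 8.05% and 10.1% of all genes. All 10 lay above the median level, where 24.6% of genes had separate groups either way, and 40.0% of these targets did. Their median log2 difference was -0.13. Srebf1, the LXR target that drives fatty acid synthesis, had values of 8.13, 7.40 and 7.54 in HKO livers, against 8.34, 8.35 and 8.29 in Con livers, with separate groups (limma adjusted p = 0.254). Lipoprotein lipase, Lpl, stood at -0.75 (adjusted p = 0.251) with overlap, and Apoc2, its activator, at -0.25 (adjusted p = 0.363). Of the sterol exporters under LXR, Abca1, Abcg1 and Abcg5 had lower mean values in HKO, with groups that overlapped. Abcg8 had a higher mean value, with separate groups. None of these exporters passed over all genes, and a part of LXR in their values was not tested.

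Of 14 measured proteins that work beside ABC pumps, 0 passed over all genes, 3 had HKO values all above and 0 all below the Con values, and the median log2 difference was 0.07. The 3 are 21.4% of the list, close to the 18.2% of all genes with separate groups. Slc10a1, the sodium-driven uptake carrier that brings bile salts from blood to the hepatocyte, had values of 10.98, 10.96 and 10.92 in HKO livers, against 10.58, 10.53 and 10.68 in Con livers. The groups were clearly apart, at a log2 difference of 0.36 (interval 0.13 to 0.58; limma adjusted p = 0.228). Slc9a3r1, a scaffold that holds transporters at the membrane, stood at 0.28 (adjusted p = 0.297), with separate groups. Ezr, which links membrane proteins to actin, stood at 0.23 (adjusted p = 0.577). The flippase Atp8b1, which protects the canalicular membrane beside Abcb11 and Abcb4, overlapped at -0.04. The ABC proteins that carry other symbols, the antigen peptide transporters Tap1 and Tap2 and the chloride channel Cftr, stood at 0.08, -0.10 and -0.11. Separate groups were found for 0 of these 3, beside 18.2% of all genes.

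**Figure D4:**
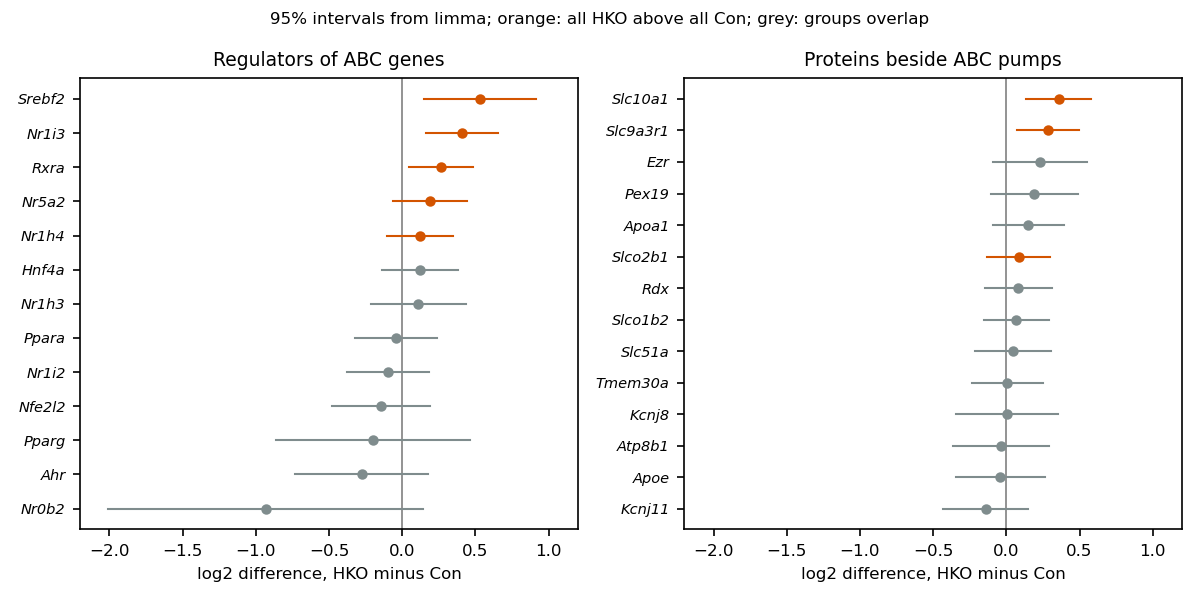
Log2 difference (HKO minus Con) with limma's 95% interval for 13 regulators of ABC genes (left panel) and 14 proteins that work beside ABC pumps (right panel). Orange points have all HKO values above all Con values, and grey points overlap. Nr0b2 has the widest interval, -2.01 to 0.14.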

How the data were processed

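The values deposited by the authors are on the log2 scale and, per the submitters' processing notes, come from RMA run in R 3.3.0. The sources used here do not give the array's genome build. Of 41345 probe sets, 23521 have 1 gene in the platform annotation, 1814 several and 16010 none. Where a gene had several probe sets, the one of highest mean over the 6 arrays stood for it, giving 22180 genes. No low-value filter was applied. HKO was compared with Con in limma 3.58.1 (R 4.3.3; lmFit and eBayes, two-sided, no covariates). P-values were adjusted over all genes by Benjamini-Hochberg and called at 0.05. Intervals are limma's 95% ones. The labels do not say how the mice were housed or processed, so p-values measure the spread between these mice only, and 3 arrays a group limit the precision.

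The members, lists and tests were chosen with earlier results of these data known. The genes named are those past adjusted p 0.05, those with an unadjusted p under 0.05 and separate groups, all canalicular and basolateral pumps, and up to 2 further genes of highest mean per subfamily. Of lists outside the ABC symbols, up to 3 genes of lowest p are named, and all other genes named were chosen after their values were seen. Figures used matplotlib 3.10.9 and Python 3.11.15. The steps were tested on simulated data. Alternatives tried were the mean of all probe sets, every probe set on its own, 2 scalings, 2 low-value filters, 2 variance models, weighted arrays, a block for the replicate number, a threshold of 0.1 and leaving out each array.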

Additional observations from a re-analysis of the deposited data

How the results depend on the processing

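The count of ABC genes past the threshold stayed at 1 under both scalings, both low-value filters, both variance models, array weights, averaged probe sets and a threshold of 0.1. It was 0 with the replicate block and 0 when every probe set was tested on its own, where more tests share the adjustment. There the log2 difference of Snai2 was also -2.43 but missed the threshold, with an adjusted p of 0.0540 under the block and 0.0910 over all probe sets, and Abca3 had an adjusted p of 0.0514 and 0.0910. The replicate numbers do not pair the mice by the labels. Correlations of deviations between same-numbered HKO and Con arrays were 0.03, 0.02 and 0.02, although each array correlated best with its own number.

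Leaving out each array gave 0 to 2 called ABC genes, 16 to 22 with separate groups (22 without Con replicate 1), a median from -0.06 to -0.03, and -2.69 to -2.15 for Snai2, whose adjusted p was 0.0758, 0.0927 and 0.0621 without Con replicate 1, Con replicate 2 and HKO replicate 2. Fewer arrays make separate groups likelier by construction. Signs of genes near 0 turned without 1 array: Abca6 ran from -0.0341 to 0.134, Abca8b from -0.0816 to 0.0213, Abcb8 from -0.0742 to 0.0833, Abcb11 from -0.19 to 0.10, Abcc3 from -0.0760 to 0.00299, Abcc4 from -0.26 to 0.14, Abcc9 from -0.0476 to 0.0562, Abce1 from -0.0412 to 0.0197 and Abcf1 from -0.000516 to 0.0947. The cause was not tested. The number of genes called over the whole array was 45, and it was 41 after a second quantile normalization, 138 and 242 under the filters at the median level and at 5, 215 with a variance trend, 3 with the replicate block and 4 over all probe sets. Without 1 array it ran from 4 to 32. RMA compresses differences of dim genes, so small ones may not be detectable with 3 arrays a group.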

Other observations

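Several ABC genes lie side by side in the mouse genome. On chromosome 11 RefSeq places Abca8b, Abca8a, Abca9, Abca6 and Abca5 in a row. Abca8a stood at 0.62 and Abca5 at -0.32, with separate groups at either gene. The genes between and beside them, Abca9 (-0.16), Abca6 (0.06) and Abca8b (-0.04), overlapped. On chromosome 5 Abcb1a, Abcb1b and Abcb4 lie close together, at log2 differences of -0.35, 0.24 and -0.27, and of these only Abcb4 had separate groups. On chromosome 7 Abca14, Abca15 and Abca16 lie together. All 3 had means below the median over genes, with log2 differences from -0.15 to 0.06.

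Nr0b2, the repressor SHP that FXR induces, had the largest difference in mean among the 13 regulators, and its HKO livers varied widely. Its values were 7.77, 6.72 and 5.51 in HKO livers, against 7.53, 7.50 and 7.76 in Con livers, so HKO replicate 1 was as high as the Con livers and HKO replicate 3 was far below them. The log2 difference of Nr0b2 was -0.93, with an interval of -2.01 to 0.14 (limma adjusted p = 0.490).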
